A study of Mus musculus with 7 samples.

Results

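The Myc family and its Max partners are 10 of the 50600 genes in the deposited tables. They are Myc, Mycn, Mycl, Max, Mxd1, Mxd3, Mxd4, Mxi1, Mnt and Mga, selected by gene symbol alone, and all 10 were found. Their transcripts were counted by RNA sequencing in tumours from the mammary glands of ECD transgenic animals (4 libraries) and in mammary glands labelled only as controls (3 libraries). Each tumour sample was a central piece of the tumour: 1a and 1b are adenosquamous carcinomas, 3 is a spindle cell carcinoma and 4 is a papillary carcinoma. The promoter that drives the transgene, the strain, the age of the mice and the genotype of the control mice were not stated in the labels. The spindle cell and papillary types have 1 library each, and the shared number of tumours 1a and 1b may or may not mean 1 animal.

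Myc, N-Myc and L-Myc are basic helix-loop-helix leucine zipper proteins that bind DNA only as pairs with Max, and they turn on genes for ribosome assembly, metabolism and the cell cycle. The Mxd proteins, Mxi1 and Mnt compete for the same Max and the same E-box sequence, CACGTG, and bring in Sin3 and histone deacetylase corepressors. Mga pairs with Max in a Polycomb complex that keeps germ cell genes silent. In the mammary gland, Myc is known for driving epithelial growth and for its amplification in breast cancers, and Mycn is known mainly from embryonic tissue and neuroblastoma.

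Library totals ran from 5420562 to 28638143 counts in the tumours and from 5148438 to 35631279 in the glands, and genes of mitochondrial DNA took 18.34% to 32.61% of tumour counts and 48.36% to 64.83% of gland counts. Summed CPM (counts per 1000000 TMM-scaled counts) of 10 proliferation markers were 449 to 722 in tumours and 19.0 to 45.5 in glands. The sums of 10 adipocyte markers were 23.9 to 150 in tumours and 3130 to 6540 in glands, with Adipoq, Cidec, Retn and Cfd at 0 in the spindle cell tumour. Skeletal muscle markers summed to 1.43 to 251 CPM in tumours, against 15600, 23.5 and 30500 in glands 1, 2 and 3. The 2 adenosquamous tumours had the highest squamous marker sums, 525 and 501 CPM, while no other library was above 45.1. The library labelled spindle cell carcinoma was below all glands in the sum of 10 mesenchymal markers, at 385 CPM against 735 to 1620. That sum was 8930 CPM in tumour 1a and 5040 in tumour 1b. Vim was at 53.6 CPM, against 128 to 243 in glands. The low sum was not particular to this library, as the papillary tumour was at 448 CPM. The median log2 difference of these markers from glands was -1.9 in the spindle cell and -2.79 in the papillary tumour. The sum of 10 basal markers was 573 CPM in the spindle cell and 152 in the papillary tumour. It was 1990 and 1140 CPM in tumours 1a and 1b, and 168, 297 and 404 CPM in glands 1, 2 and 3. In the spindle cell tumour 7 of 10 basal differences from glands were positive, with a median of 1.84. The sum of 10 luminal markers was 1080 CPM in the spindle cell tumour, against 938, 454 and 719 CPM in glands 1, 2 and 3. Of that panel, 5 of 10 differences of this tumour from glands were positive, and the median was -1.16. Whether the tumour type label of this library holds was not tested. Ecd itself, as the mouse gene of the tables, was at 15.9 to 21.8 CPM in tumours and 12.7 to 19.1 CPM in glands; this does not check the label where the transgene is of another species, which is not stated. The part of these differences in the results that follow was not tested. In bulk tissue, fewer cells of a type and less RNA per cell cannot be told apart.

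The tumours split by their main Myc family transcript. Myc was the main family transcript in tumours 1a, 1b and 4, and Mycn in tumour 3, where Myc was at its lowest of all 7 libraries. Myc (ENSMUSG00000022346, chr15:61985391-61990374, plus strand, GRCm38) was at 33.4 CPM in tumour 1a, 39.7 in tumour 1b, 1.28 in the spindle cell and 50.1 in the papillary tumour, against 4.95, 10.8 and 16.1 CPM in glands 1, 2 and 3. Myc had 13 counts in the spindle cell and 1439 in the papillary tumour, and 14 counts in gland 1. The adenosquamous and papillary values lay above all glands, and the spindle cell value lay below all glands, so the tumours fell on both sides of the gland range.

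Mycn (ENSMUSG00000037169, chr12:12936093-12941914, minus strand) was at 0.17 CPM in tumour 1a, 0.68 in tumour 1b, 198 in the spindle cell and 1.15 in the papillary tumour, against 0, 0.284 and 0.19 CPM in glands 1, 2 and 3. In counts that is 2009 in the spindle cell tumour, 2, 5 and 33 in tumours 1a, 1b and 4, and 13 over the 3 glands together. The spindle cell tumour stood far above every other library, and the remaining libraries all sat near or below 1 CPM.

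Mycl (ENSMUSG00000028654, chr4:122995652-123002485, plus strand), the family member known from lung cancer, was at 1.36 CPM in tumour 1a, 0.952 in tumour 1b, 7.29 in the spindle cell and 0.453 in the papillary tumour, against 0.354, 1.67 and 7.68 CPM in glands 1, 2 and 3. The glands alone spanned the whole range of the tumours, so the groups overlapped completely.

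**Figure D1:**
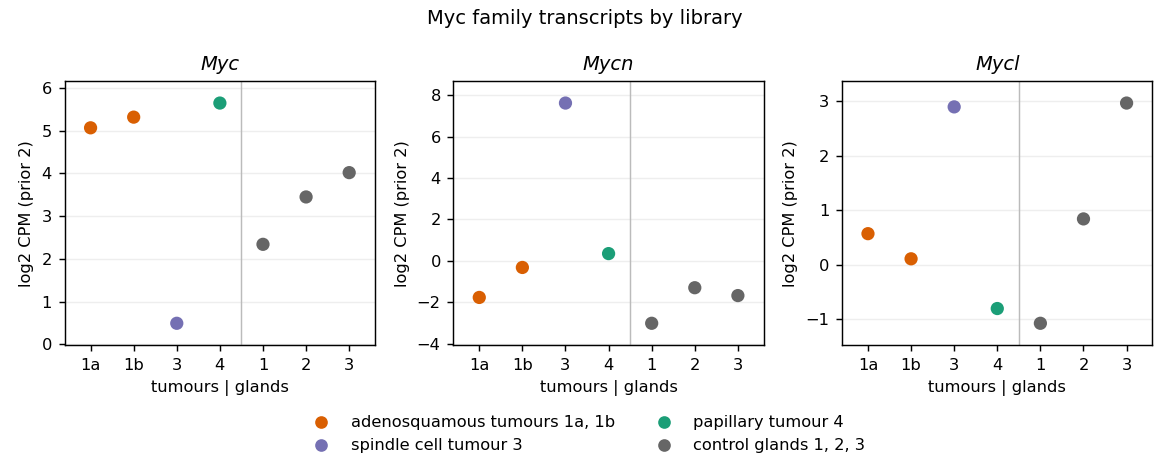
Log2 CPM (prior count 2) of Myc, Mycn and Mycl in each of the 7 libraries, 1 point per library, with the 4 tumours left of the line and the 3 glands right of it. Myc is high in tumours 1a, 1b and 4 and lowest in the spindle cell tumour, which alone is high in Mycn at 198 CPM.

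Tumours were set against glands with edgeR's quasi-likelihood test, with Benjamini-Hochberg adjustment over all genes tested. Over all 4 tumours, the log2 difference of Myc was 1.53 (SE 0.98, adjusted p = 0.336) and that of Mycl was -0.44 (SE 1.15, adjusted p = 0.828), and neither passed. Mycn did not pass the filter on low counts in this comparison, because only the spindle cell library is high. Of the 10 members 8 were tested, and edgeR called 0 of them (2 at unadjusted p under 0.05, while DESeq2 called 2 and limma-voom 0). Over all 14149 genes tested, 3.90% were called higher and 4.57% lower in tumours by edgeR, and 4093 had unadjusted p under 0.05. DESeq2 called 3403 genes and limma-voom 1524.

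Each tumour type was then set against the same 3 glands in 1 fit with 4 groups, in which a type with 1 library is assumed to vary like the glands and the adenosquamous tumours. Mycn passed in the spindle cell tumour, with a log2 difference of 9.78 (SE 0.69, adjusted p = 0.0269), where 1.45% of 16866 genes were called in either direction. Mycn entered this test only through the library in which it is high, so it had to differ. The ratio of its summed, depth-scaled counts in the spindle cell tumour to those in glands was 847, with an exact 95% interval of 494 to 1590 that covers counting error only. The call was lost without control gland 1 (adjusted p = 0.069) or control gland 3 (adjusted p = 0.0987), with log2 differences of 9.67 and 9.66.

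Between the spindle cell tumour and the glands, Myc differed by -3.05 on the log2 scale (SE 0.79, adjusted p = 0.113), which did not pass in edgeR and passed in DESeq2 (adjusted p = 0.00118). Its count ratio was 0.102 (exact 95% interval 0.0543 to 0.176, counting error only). In the adenosquamous tumours the difference was 1.73 (SE 0.48, adjusted p = 0.0823), with 7.19% of genes called in that comparison, and in the papillary tumour it was 2.25 (SE 0.56, adjusted p = 0.064), with 6.76% called. Both differences passed in DESeq2 (adjusted p = 0.00725 in the adenosquamous and 0.00719 in the papillary comparison), and the papillary one in limma-voom (adjusted p = 0.0313). Without the filter on low counts Myc passed in edgeR in all 3 (adjusted p = 0.0253 adenosquamous, 0.028 spindle cell and 0.0113 papillary). The shares of genes called are those of edgeR with the filter. DESeq2 and edgeR without the filter called more genes in each comparison, in adenosquamous tumours 3552 and 2499. These 3 comparisons share their glands and are not independent of each other. Their counts of called genes rest on single libraries: 0 were called in adenosquamous tumours without tumour 1b, 0 in the spindle cell tumour without control gland 1 or control gland 3, and 0 in the papillary tumour without control gland 3.

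Mycn was at 1.15 CPM in the papillary tumour, a log2 difference of 2.39 from the glands (SE 0.70, adjusted p = 0.0902), and the counting ratio was 4.92 (exact 95% interval 2.52 to 10.2). In the adenosquamous tumours its difference was 0.78 (SE 0.77, adjusted p = 0.569). Mycl did not pass in any type: its log2 differences were -1.56 (SE 1.15, adjusted p = 0.421) in adenosquamous tumours, 1.12 (SE 1.26, adjusted p = 0.664) in the spindle cell tumour and -2.84 (SE 1.62, adjusted p = 0.305) in the papillary tumour.

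Types were also tested against each other. Mycn was 9.01 higher on the log2 scale in the spindle cell than in the adenosquamous tumours (SE 0.80, adjusted p = 0.104) and 7.39 higher than in the papillary tumour (SE 0.97, adjusted p = 0.074). Myc differed by -4.79 between spindle cell and adenosquamous tumours (SE 0.88, adjusted p = 0.158) and by -5.31 between the spindle cell and papillary tumours (SE 0.93, adjusted p = 0.108). No gene passed in edgeR in either comparison, so the share called was 0% in both, with 2026 genes at unadjusted p under 0.05 in the first and 1756 in the second. DESeq2 called 1087 and 893 genes there, limma-voom 0 and 0, and edgeR without the low-count filter 377 and 417. In that setting Myc passed in both (adjusted p = 0.00761 against adenosquamous tumours and 0.00347 against the papillary tumour). Mycn and Myc were among the DESeq2 calls, with adjusted p = 9.45e-18 and 3.68e-07 against adenosquamous tumours and adjusted p = 6.96e-13 and 4.88e-07 against the papillary tumour. These p-values are no independent support for Mycn, which entered the fit only through the spindle cell library, and in them 1 library stands for a type. The counting ratios of the spindle cell tumour to the other 3 tumours were 237 for Mycn (exact 95% interval 173 to 332), 0.0288 for Myc (0.0153 to 0.0494) and 9.68 for Mycl (6.42 to 14.8).

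The papillary and adenosquamous tumours did not separate in Myc. Their log2 difference in Myc was 0.52 (adjusted p = 0.704) and in Mycn 1.61 (adjusted p = 0.324), where 0.350% of genes were called. From high to low, Myc therefore ran papillary, adenosquamous, glands, spindle cell, and none of the neighbouring steps passed in edgeR with the low-count filter, while without it adenosquamous against glands and spindle cell against glands both passed, as given above.

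The promoter of Mycn is shown because its transcript carries the largest difference of the family. It is RefSeq's window of 250 bases before to 50 after the annotated start (GRCm38.p6, chr12:12941787-12942086, minus strand, 56.7% GC), 5′ to 3′. The capitals mark matches to TTTNGCGC, a form of the binding site of E2F factors, searched on both strands.

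Mycn promoter: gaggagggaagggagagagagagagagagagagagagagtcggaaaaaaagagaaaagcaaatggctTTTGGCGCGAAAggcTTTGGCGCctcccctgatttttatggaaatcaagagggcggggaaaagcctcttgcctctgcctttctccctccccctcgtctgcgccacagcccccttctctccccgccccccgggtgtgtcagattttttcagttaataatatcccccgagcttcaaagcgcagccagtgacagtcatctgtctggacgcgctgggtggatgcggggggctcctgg

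The window holds 3 matches, whose first bases lie at -183, -179 and -168 from the start, the first and second overlapping on opposite strands. TTTNGCGC was found in 1.4% of all 32851 promoter windows and in none of those of the other members with a window. A match describes these letters and shows neither a bound site nor a cause.

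The genes around Mycn were set beside it, a choice made after the values of Mycn were seen. Of 10 other protein-coding genes that start within 2000000 bases, 8 were tested in the spindle cell tumour and edgeR called 0. Ddx1, an RNA helicase gene 307 kb away, was at 79.8 CPM in the spindle cell tumour, against 80.3, 63.7 and 67.7 CPM in glands 1, 2 and 3 (log2 difference 0.21, SE 0.34, adjusted p = 0.776). Nbas, a vesicle transport gene at 327 kb, was at 36.8 CPM, against 14.9, 22.0 and 33.9 CPM in glands (log2 0.66, SE 0.51, adjusted p = 0.52). Ddx1 lay within the gland range and Nbas just above it. Fam84a, 1210 kb away, was at 71.7 CPM in the spindle cell tumour, 2.98 in tumour 1a, 21.2 in tumour 1b and 1.01 in the papillary tumour, against 1.77, 2.18 and 1.71 CPM in glands. Its log2 difference in the spindle cell tumour was 5.26 (SE 0.89, adjusted p = 0.0545). On the other side, at -680 kb (toward lower coordinates), Fam49a was at 4.93 CPM in the spindle cell tumour, against 18.4, 30.7 and 15.1 CPM in glands (log2 -2.09, SE 0.64, adjusted p = 0.151). Kcns3, a potassium channel subunit gene at -1791 kb, had the largest difference among the 8 in size, at 0.0985 CPM in the spindle cell tumour, against 6.72, 4.07 and 7.96 CPM in glands (log2 -5.84, SE 1.17, adjusted p = 0.0709). It fell over all 4 tumours (log2 -6.48, SE 0.85, adjusted p = 0.0101).

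**Figure D2:**
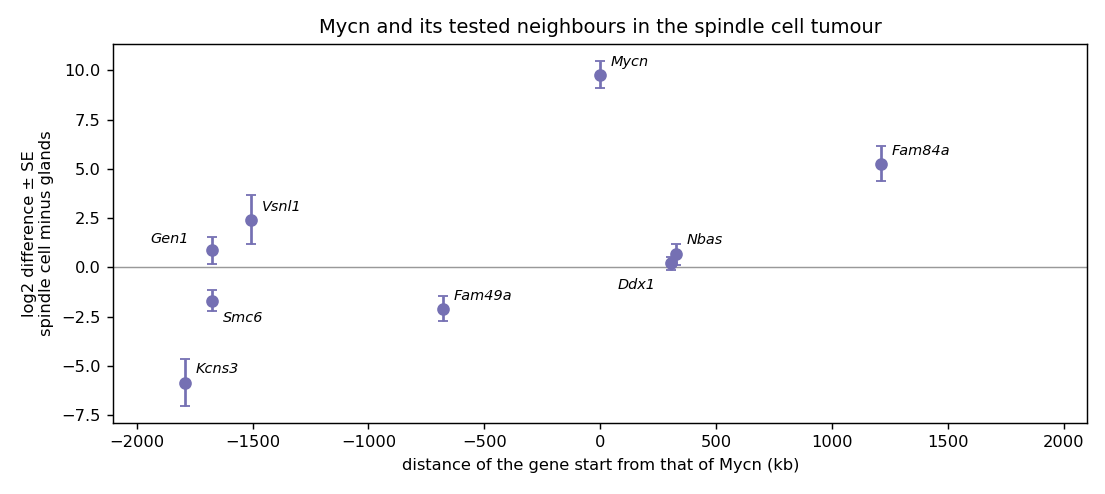
Log2 difference (± SE) between the spindle cell tumour and the 3 glands for Mycn and its 8 tested neighbours, by distance of the gene start from that of Mycn in kb. Mycn stands at 9.78 with Ddx1 at 0.21 and Nbas at 0.66 beside it, Fam84a at 5.26 is the next highest, and Kcns3 at -5.84 is the lowest.

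Near Myc, 2 of 8 genes within the same distance were tested and edgeR called 0 in the spindle cell tumour. Pvt1, the long noncoding RNA gene 53 kb from Myc that is often co-amplified with it, was at 4.17 CPM in tumour 1a, 8.84 in tumour 1b, 0.394 in the spindle cell and 1.85 in the papillary tumour, against 0.354, 4.13 and 7.58 CPM in glands. Its spindle cell value was low as that of Myc was, but gland 1 was as low, and its log2 difference was -3.38 (SE 1.64, adjusted p = 0.312). In the papillary tumour Pvt1 lay within the gland range (log2 -1.15, SE 1.32, adjusted p = 0.607), where Myc was above all glands with a count ratio of 4.01 (exact 95% interval 3.66 to 4.39, counting error only). Fam84b, on the other side of Myc, was at 56.1 CPM in the spindle cell and 88.7 in the papillary tumour, against 14.4 to 32.2 CPM in glands (spindle cell log2 1.38, SE 0.49, adjusted p = 0.192).

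Max, the shared partner, was the steadiest member. Max (ENSMUSG00000059436, chr12:76937269-76962201, minus strand) was at 25.9 CPM in tumour 1a, 31.6 in tumour 1b, 37.9 in the spindle cell and 35.1 in the papillary tumour, against 33.2, 39.7 and 35.5 CPM in glands 1, 2 and 3. Both adenosquamous tumours lay just below the glands and the other tumours within them. The log2 difference over all tumours was -0.15 (SE 0.23, adjusted p = 0.694).

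The antagonists Mxd1 and Mnt lay higher in tumours without passing in edgeR. Mxd1 (ENSMUSG00000001156, chr6:86647042-86669161, minus strand), known to replace Myc on Max as cells differentiate, was at 19.4 CPM in tumour 1a, 26.0 in tumour 1b, 10.8 in the spindle cell and 38.3 in the papillary tumour, against 2.83, 11.3 and 7.44 CPM in glands 1, 2 and 3. The tumours with high Myc were those above all glands in Mxd1, and the spindle cell tumour lay within the gland range. The log2 difference over all tumours was 1.68 (SE 0.57, adjusted p = 0.109), and DESeq2 called it (adjusted p = 0.0262). By type the difference was 1.59 in adenosquamous (SE 0.55, adjusted p = 0.128), 0.56 in spindle cell (SE 0.68, adjusted p = 0.69) and 2.41 in papillary (SE 0.63, adjusted p = 0.0726), the papillary one called by DESeq2 (adjusted p = 0.0109) and limma-voom (adjusted p = 0.0352). Between spindle cell and papillary tumours Mxd1 differed by -1.85 (adjusted p = 0.568), so the types were not shown to differ.

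Mnt (ENSMUSG00000000282, chr11:74830920-74845725, plus strand), the broadly expressed antagonist, was at 11.7 CPM in tumour 1a, 13.6 in tumour 1b, 12.8 in the spindle cell and 11.7 in the papillary tumour, against 8.84, 6.81 and 7.77 CPM in glands 1, 2 and 3. All 4 tumours lay above all 3 glands and close together, at 12.4 ± 0.937 CPM in tumours (SD, n = 4) and 7.81 ± 1.02 CPM in glands (SD, n = 3). The log2 difference was 0.68 (SE 0.26, adjusted p = 0.139), and DESeq2 called it (adjusted p = 0.0291).

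Mxd4 (ENSMUSG00000037235, chr5:34173883-34187720, minus strand), an antagonist linked to quiescent cells, was at 43.3 CPM in tumour 1a, 30.3 in tumour 1b, 117 in the spindle cell and 56.4 in the papillary tumour, against 53.1, 49.9 and 54.9 CPM in glands 1, 2 and 3. The spindle cell tumour was above the glands, both adenosquamous tumours were below them, and the papillary tumour was at their upper edge. The log2 difference in the spindle cell tumour was 1.19 (SE 0.34, adjusted p = 0.132), called by DESeq2 (adjusted p = 0.0367), and that between spindle cell and adenosquamous tumours was 1.71 (SE 0.37, adjusted p = 0.183), also called by DESeq2 (adjusted p = 0.00374). Over all 4 tumours it was 0.23 (SE 0.45, adjusted p = 0.765) and turned to -0.24 without the spindle cell tumour.

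Mxi1 (ENSMUSG00000025025, chr19:53310518-53375810, plus strand), the former Mad2, was at 20.3 CPM in tumour 1a, 33.7 in tumour 1b, 24.2 in the spindle cell and 26.3 in the papillary tumour, against 22.6, 12.3 and 23.4 CPM in glands 1, 2 and 3. The groups overlapped through tumour 1a, and the log2 difference was 0.43 (SE 0.32, adjusted p = 0.403). Mxd3 (ENSMUSG00000021485, chr13:55325168-55329823, minus strand), which unlike the other antagonists is known from dividing cells, had 16 counts in tumour 1a, 9 in tumour 1b, 5 in the spindle cell and 20 in the papillary tumour, against 1, 10 and 0 in glands 1, 2 and 3. In CPM all 4 tumours (0.493 to 1.36) lay above all 3 glands (0 to 0.354), but Mxd3 did not pass the low-count filter over tumours and glands. It was tested in the fit with 4 groups, where edgeR did not call it in any type against glands. Its exons overlap those of Prelid1 on the opposite strand, which had 441 to 2543 counts in tumours and 33 to 1019 in glands, and the libraries do not mark strand, so the counts of Mxd3 are uncertain.

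Mga (ENSMUSG00000033943, chr2:119897228-119969581, plus strand), the Polycomb-linked partner, was at 120 CPM in tumour 1a, 140 in tumour 1b, 127 in the spindle cell and 193 in the papillary tumour, against 193, 161 and 160 CPM in glands 1, 2 and 3. The papillary tumour equalled the highest gland after rounding, and the other 3 tumours lay below all glands. The log2 difference was -0.24 over all tumours (SE 0.26, adjusted p = 0.588), and the papillary tumour differed from the adenosquamous tumours by 0.64 (SE 0.38, adjusted p = 0.419).

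**Figure D3:**
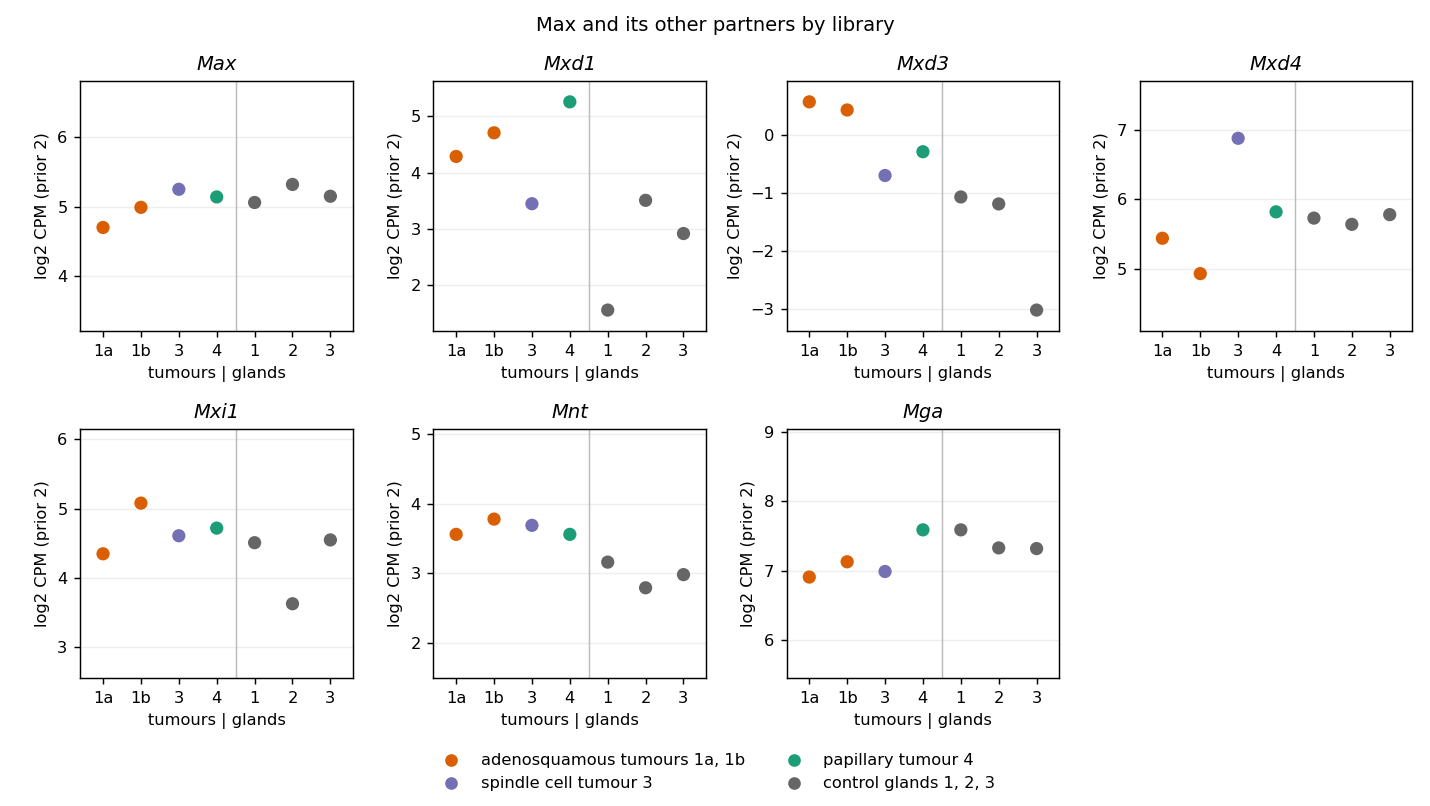
Log2 CPM (prior count 2) of Max, Mxd1, Mxd3, Mxd4, Mxi1, Mnt and Mga in each library, 1 point per library, tumours left of the line and glands right of it. All 4 tumours are above all glands in Mnt and Mxd3, the spindle cell tumour stands highest in Mxd4, and Max is nearly level.

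Levels of different genes were compared only per length, as CPM per kilobase of the union of a gene's exons. Mycn was the most abundant of the 10 in the spindle cell tumour at 60.1 CPM per kb, followed by Mxd4 at 13.8 and Max at 10.5, with Myc ninth at 0.471. In tumours 1a, 1b and 4 Myc came first, at 12.3, 14.6 and 18.5 CPM per kb. In glands 1 and 3 Mga led and in gland 2 Max did, an order that turns with the length used (by the longest transcript Max led in all 3 glands), with Myc at 1.82, 3.98 and 5.91 CPM per kb in glands 1, 2 and 3. Myc made up 96.9%, 97.1% and 97.6% of the per-length family total in tumours 1a, 1b and 4 and 0.756% in the spindle cell tumour, where Mycn made up 96.3%. In glands 1, 2 and 3 the share of Myc was 95.4%, 88.8% and 75.1%.

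The summed family level per length was 12.7, 15.1, 62.4 and 18.9 CPM per kb in tumours 1a, 1b, 3 and 4, against 1.91, 4.48 and 7.87 CPM per kb in glands 1, 2 and 3. Every tumour lay above every gland in this sum. The summed antagonists Mxd1, Mxd3, Mxd4, Mxi1 and Mnt came to 13.9, 15.7, 21.9 and 18.7 CPM per kb in the same tumours, against 12.0, 10.9 and 12.6 in glands. The family total divided by that of the antagonists was 0.91, 0.962, 2.85 and 1.01 in tumours 1a, 1b, 3 and 4, against 0.159, 0.412 and 0.623 in glands. With the length of the longest transcript in place of the exon union the ratios were 0.706, 0.779, 2.16 and 0.771 in tumours, against 0.119, 0.301 and 0.462 in glands. Against Max alone the family came to 1.76, 1.72, 5.91 and 1.94 in tumours and 0.207, 0.405 and 0.798 in glands, and with the longest transcript to 1.11, 1.08, 3.92 and 1.22 in tumours and 0.13, 0.254 and 0.5 in glands. Every tumour was above every gland in both ratios by either length. The spindle cell tumour had the highest family level and also the highest antagonist level, of which Mxd4 made up 63.2%. These sums are descriptions of transcripts and were not tested.

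**Figure D4:**
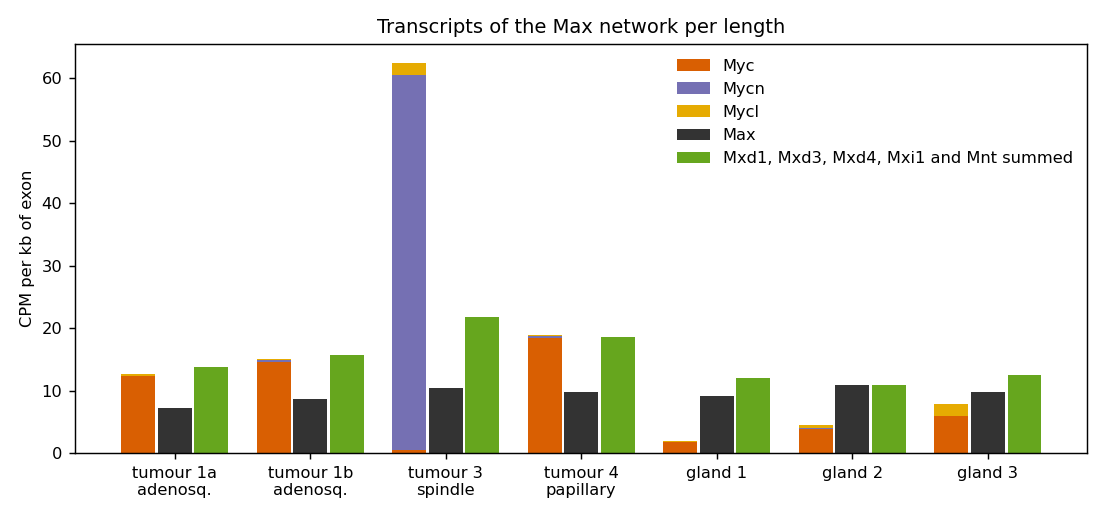
CPM per kb of exon in each library, tumours first and then glands: stacked bars of Myc, Mycn and Mycl, a bar of Max, and a bar of the 5 summed antagonists. The spindle cell family bar reaches 62.4 and is nearly all Mycn, while in the glands the family bar, at most 7.87, stays below both other bars.

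The E-box CACGTG, which reads the same on both strands, was found in the promoter windows of Max, Mxd4 and Mnt, 3 of the 7 members other than the Myc family, and in neither Mycn nor Mycl. It was found in 7.2% of all windows and in 8.1% of all genes with a window. The windows of up to 30 bases around it are shown because these 3 partner genes carry in their own promoters the sequence that the network binds, with CACGTG in capitals. Their first bases lie at -3, -219 and -123 from the start of Max, Mxd4 and Mnt (GRCm38.p6, chr12:76962234-76962263, chr5:34187912-34187941 and chr11:74830789-74830818).
Max: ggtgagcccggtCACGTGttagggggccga
Mxd4: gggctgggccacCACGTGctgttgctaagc
Mnt: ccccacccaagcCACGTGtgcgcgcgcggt

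Genes known to be tied to the network were read from 10 lists holding 116 genes, of which 108 were tested over all tumours and glands. Of these, 15 rose and 5 fell in tumours, and 88 did not pass, beside 3.90% higher and 4.57% lower over all genes. Their median log2 difference was 0.67, against 0.12 over all genes tested. Single libraries moved this count: 4, 5 and 1 genes were called higher without control gland 1, 2 or 3, 9 and 7 without tumour 1a or 1b, and 7 without the spindle cell tumour. Of the 5 that fell, 3 and 1 were called without gland 1 or gland 3. With control gland 2 as the only control edgeR called 0 in either direction. DESeq2 called 39 higher and 7 lower, limma-voom 22 and 6, and edgeR without the low-count filter 8 and 5. Over all genes, DESeq2 called 3403, limma-voom 1524 and edgeR without the filter 867 in either direction. In edgeR with the filter, 4093 of 14149 genes had unadjusted p under 0.05. The DESeq2, limma-voom and unadjusted counts of the single lists below are to be read beside these.

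Of 17 nucleolar genes that Myc is known to induce, 4 rose and 0 fell (12 at unadjusted p under 0.05, while DESeq2 called 9 higher and limma-voom 5, and edgeR 1 without the filter on low counts and 2 without the mitochondrial genes), all 17 differences were positive, and the median was 0.86. Nop56, a core protein of box C/D small nucleolar particles, was at 62.4, 63.0, 78.1 and 74.6 CPM in tumours 1a, 1b, 3 and 4, against 19.8, 21.0 and 28.8 CPM in glands 1, 2 and 3, a 2.99-fold rise (log2 SE 0.25, adjusted p = 0.0143). Mybbp1a, a nucleolar Myb-binding protein, rose 2.11-fold to 78.7 ± 4.78 CPM in tumours (SD, n = 4), against 37.4 ± 4.7 CPM in glands (SD, n = 3; log2 SE 0.21, adjusted p = 0.0274). Fbl and Nolc1 were the other calls, and Ncl, nucleolin, did not pass (log2 0.18, SE 0.43, adjusted p = 0.809). No gene of the list was called when any 1 of the 3 glands was left out, and 2, 1, 1 and 2 were without tumour 1a, 1b, 3 or 4; the call of Mybbp1a was also lost without tumour 1b, the spindle cell tumour or the low-count filter. The list median was 0.75 in adenosquamous, 1.07 in spindle cell and 1.10 in papillary tumours against glands.

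Of 16 metabolic genes known to be induced by Myc, 2 rose and 1 fell, 10 differences were positive and the median was 1.08. At unadjusted p under 0.05 there were 10, while DESeq2 called 9 and limma-voom 4 in either direction. Shmt2, the mitochondrial serine hydroxymethyltransferase, was 4.52-fold higher (log2 SE 0.44, adjusted p = 0.0288), and Cad, which begins pyrimidine synthesis, rose 4.66-fold (SE 0.47, adjusted p = 0.0329). Both calls were lost without any 1 gland, tumour 1a or the spindle cell tumour, and that of Cad without tumour 1b. Hk2, a hexokinase that Myc is known to raise, went the other way, at 36.9, 94.0, 45.0 and 35.5 CPM in tumours 1a, 1b, 3 and 4, against 224, 229 and 176 CPM in glands 1, 2 and 3 (3.97-fold lower, SE 0.40, adjusted p = 0.0282, lost without any 1 gland, tumour 1a or the spindle cell tumour). Hk2 is also known from fat and muscle. Adipocyte marker sums of all tumours lay below those of all glands. Skeletal muscle marker sums were 15600, 23.5 and 30500 CPM in glands 1, 2 and 3 and 1.43 to 251 CPM in tumours. The parts of fat and muscle in the Hk2 result were not tested. Odc1, the ornithine decarboxylase gene long used as a Myc target, was at 55.3, 38.0, 94.5 and 209 CPM in tumours 1a, 1b, 3 and 4, against 12.0, 18.2 and 27.6 CPM in glands. All tumours lay above all glands in Odc1; it did not pass over all tumours (log2 2.35, SE 0.65, adjusted p = 0.0669) and rose in the papillary tumour (log2 3.47, SE 0.48, adjusted p = 0.0277).

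Of 10 cell cycle genes known to be induced by Myc, 4 rose and 0 fell, 9 differences were positive and the median was 2.01. DESeq2 called 8 higher and limma-voom 5. Cks2, a subunit of cyclin-dependent kinases, was at 11.7, 7.35, 8.87 and 5.71 CPM in tumours, against 0.707, 0.599 and 0.711 CPM in glands, a 12.5-fold rise (SE 0.44, adjusted p = 0.00887). Mcm7, a subunit of the replicative helicase, rose 4.26-fold (SE 0.29, adjusted p = 0.0109). Of the list 2, 3 and 0 genes were called without gland 1, 2 or 3, so the calls of Cks2 and Mcm7 were lost without gland 3. These genes are also proliferation genes, and Mki67, a marker of cycling cells, was at 279, 240, 405 and 357 CPM in tumours 1a, 1b, 3 and 4, against 8.49, 28.3 and 9.34 CPM in glands. Ccnd2, a D-type cyclin and direct Myc target named after its values were seen, was at 155, 87.1, 8.08 and 6.62 CPM in tumours 1a, 1b, 3 and 4, against 67.2, 123 and 122 CPM in glands. It was thus low in the spindle cell and papillary tumours, of which the papillary comparison passed (log2 -3.92, SE 0.69, adjusted p = 0.0338).

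Of 10 genes that Myc is known to hold down, 0 rose and 1 fell in edgeR over all tumours. At unadjusted p under 0.05 there were 4, while DESeq2 called 4 and limma-voom 3 in either direction. In this list 7 differences were positive, and the median was 1.13. The gene that fell was Cdkn1c, the p57 cell cycle inhibitor, at 2.38, 2.99, 2.36 and 0.523 CPM in tumours, against 24.1, 16.5 and 20.9 CPM in glands (10.1-fold lower, SE 0.57, adjusted p = 0.0179, lost without gland 1 or 3). Cdkn1a, the p21 inhibitor that Myc represses through Zbtb17, was at 8.17, 36.9, 4.53 and 28.7 CPM in tumours 1a, 1b, 3 and 4, against 4.24, 2.58 and 10.2 CPM in glands (log2 1.76, SE 0.84, adjusted p = 0.21). It was highest in tumours 1b and 4, and tumours 1a and 3 lay within the gland range. By type the list median was 0.80 in adenosquamous, -0.03 in spindle cell and -0.37 in papillary tumours.

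**Figure D5:**
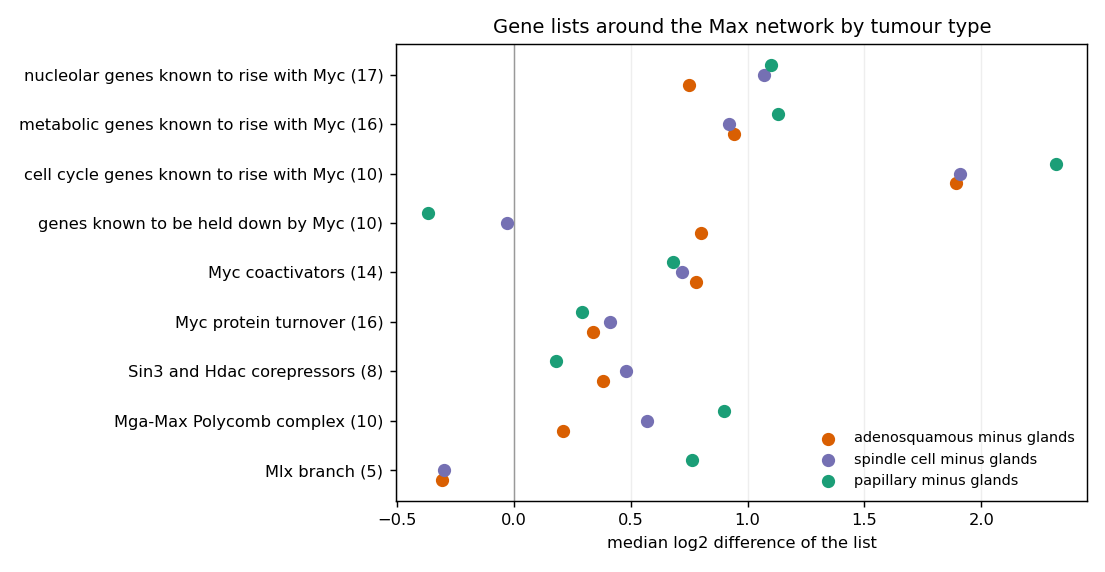
Median log2 difference from the 3 glands of 9 gene lists around the Max network, 1 point per tumour type, with the number of genes tested in brackets; the 3 types share their glands. The 3 lists known to be induced by Myc are above 0 in every type, from 0.75 for the nucleolar list in adenosquamous to 2.32 for the cell cycle list in papillary tumours, and the list known to be held down spreads from -0.37 to 0.80.

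Among 16 genes acting on Myc protein stability, 2 rose and 1 fell. C330027C09Rik, which RefSeq lists under the synonym Cip2a and which encodes an inhibitor of the phosphatase that destabilises Myc, was at 19.2, 14.1, 15.6 and 17.8 CPM in tumours 1a, 1b, 3 and 4, against 2.83, 2.33 and 1.9 CPM in glands. It rose 7.21-fold (SE 0.31, adjusted p = 0.00835) and passed in each type against glands (adjusted p = 0.0201 adenosquamous, 0.0463 spindle cell and 0.0277 papillary). Ppp2r5a, a regulatory subunit of that phosphatase, moved in the opposite direction, at 52.7, 34.6, 25.7 and 40.8 CPM in tumours, against 294, 440 and 308 CPM in glands (9.02-fold lower, SE 0.34, adjusted p = 0.00805). It also passed in each type (adjusted p = 0.0218, 0.0479 and 0.0364 in the same order). Over all tumours both calls stood in each fit that left out 1 library, and both were lost with gland 2 as the only control.

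Aurka, the mitotic kinase known to shield N-Myc from degradation, rose 6.21-fold (SE 0.43, adjusted p = 0.0156) and was at 8.51, 6.26, 7.88 and 9.37 CPM in tumours 1a, 1b, 3 and 4, against 1.41, 0.788 and 1.71 CPM in glands. The tumour with Mycn lay between the others, and the call was lost without gland 1 or 3. Fbxw7, the ubiquitin ligase subunit that marks Myc and N-Myc for degradation, was at 36.9, 46.4, 31.2 and 38.2 CPM in tumours, against 46.0, 25.7 and 29.1 CPM in glands, with overlap (log2 0.19, SE 0.28, adjusted p = 0.689).

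Of 14 coactivators 2 rose, with a median of 0.69. Actl6a, a subunit shared by chromatin remodelling complexes and the Tip60 acetyltransferase complex, was at 19.6 ± 0.451 CPM in tumours (SD, n = 4) and 8.15 ± 0.726 CPM in glands (SD, n = 3), a 2.41-fold rise (SE 0.23, adjusted p = 0.0227). Hcfc1, a cofactor that Myc binds, rose 2.11-fold (SE 0.26, adjusted p = 0.046). The call of Hcfc1 was lost without any 1 library, and that of Actl6a without any 1 gland, tumour 1b or the spindle cell tumour. Neither was called without the low-count filter.

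Of 8 Sin3 and histone deacetylase corepressor genes edgeR called 0 over all tumours (2 at unadjusted p under 0.05, while DESeq2 called 1 and limma-voom 0). Sin3a, the scaffold that Mxd proteins and Mnt recruit, was at 44.3, 51.4, 59.1 and 52.6 CPM in tumours 1a, 1b, 3 and 4, against 37.5, 60.3 and 52.5 CPM in glands (log2 0.05, SE 0.25, adjusted p = 0.917). Its groups overlapped. Sap30, which has the smallest p of the list, was at 9.02, 12.2, 10.3 and 2.54 CPM in tumours, against 3.18, 1.8 and 2.46 CPM in glands (log2 1.81, SE 0.59, adjusted p = 0.0967) and rose in the adenosquamous tumours (log2 2.14, SE 0.45, adjusted p = 0.0433).

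In the Polycomb complex of Mga and Max, 1 of 10 genes rose. It was Tfdp1, the partner of the E2F subunit, 2.56-fold higher (SE 0.32, adjusted p = 0.0423), a call lost when any 1 library was left out and without the low-count filter. E2f6, the E2F subunit itself, named after its values were seen, was at 5.19, 4.63, 2.27 and 6.52 CPM in tumours 1a, 1b, 3 and 4, against 12.0, 8.38 and 33.6 CPM in glands. All tumours lay below all glands in E2f6, which did not pass (log2 -1.95, SE 0.57, adjusted p = 0.0756). Pcgf6, the subunit that defines the complex, was at 3.23, 4.22, 6.5 and 5.71 CPM in tumours, against 4.6, 1.73 and 2.37 CPM in glands (log2 0.82, SE 0.49, adjusted p = 0.297), with overlap. Of 10 germ cell genes that the complex keeps silent, 2 had enough counts to be tested. Mael and Tex101 were at 0 in all 7 libraries. Sycp3, a protein of the meiotic chromosome axis, was at 0.0851, 0.272, 0 and 0.0697 CPM in tumours 1a, 1b, 3 and 4, against 7.07, 4.54 and 5.26 CPM in glands, and fell (log2 -5.79, SE 0.76, adjusted p = 0.0101, lost without gland 3).

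Of the 9 germ cell genes with a RefSeq promoter window 6 held CACGTG, a list known for it and shown for that reason. The windows of 3 follow, with CACGTG in capitals (GRCm38.p6, chr13:112652322-112652351 on the minus strand, chr6:49395472-49395501 on the plus strand and chr10:88459511-88459540 on the plus strand).
Ddx4: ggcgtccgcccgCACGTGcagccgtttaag
Stk31: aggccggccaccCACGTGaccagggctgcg
Sycp3: gccgttggctccCACGTGagaacgggcatg

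Among the Myc-induced lists, genes with CACGTG in a window numbered 2 of 13 nucleolar, 5 of 13 metabolic and 1 of 8 cell cycle genes, beside 8.1% of all genes. The cell cycle gene was Cdk4, with 4 matches. Cdk4 was at 47.2, 43.0, 67.3 and 46.5 CPM in tumours 1a, 1b, 3 and 4, against 3.18, 17.7 and 20.2 CPM in glands, and did not pass (log2 1.87, SE 0.57, adjusted p = 0.0834). Its first match is shown, at chr10:127063351-127063380, plus strand.
Cdk4: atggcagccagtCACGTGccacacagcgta

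The parallel branch of the network runs through Mlx, which pairs with the glucose-sensing factors Mlxip and Mlxipl and drives Txnip. Mlx was at 11.7, 8.57, 16.5 and 12.0 CPM in tumours 1a, 1b, 3 and 4, against 6.72, 17.8 and 12.3 CPM in glands (log2 -0.03, SE 0.40, adjusted p = 0.972), and the log2 difference of Mlxip was 0.50 (SE 0.45, adjusted p = 0.491). Mlxipl, the lipogenic factor ChREBP of liver and fat, was at 2.47, 1.09, 2.96 and 7.77 CPM in tumours, against 53.4, 187 and 93.8 CPM in glands, a 30.5-fold fall (log2 SE 0.74, adjusted p = 0.013, lost without gland 3). It went with the adipocyte markers, of which 9 of 10 fell, and their part was not tested.

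Txnip, the thioredoxin-binding inhibitor of glucose uptake that Mlx pairs induce and Myc is known to oppose, was at 127, 97.1, 110 and 745 CPM in tumours 1a, 1b, 3 and 4, against 443, 403 and 532 CPM in glands. The papillary tumour lay above all glands and the other 3 tumours below them. Txnip fell in the adenosquamous tumours (log2 -2.04, SE 0.38, adjusted p = 0.0326), while the spindle cell difference of -2.04 (SE 0.50, adjusted p = 0.103) and the papillary difference of 0.76 (SE 0.42, adjusted p = 0.297) did not pass. The papillary and adenosquamous tumours differed by 2.80 in Txnip (SE 0.45, adjusted p = 0.0613).

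Genes with the pattern most like each Myc family member were ranked by Pearson r of log2 CPM over the 7 libraries, given as a description without p because the libraries share their scaling and depth. For Myc the 5 highest of 9553 genes were Hip1 (r = 0.954), Srxn1 (0.954), Arhgef17 (0.941), Piezo1 (0.94) and Hs3st3b1 (0.939). Hip1, an endocytic adaptor, was at 46.6, 67.8, 13.0 and 57.5 CPM in tumours 1a, 1b, 3 and 4, against 16.6, 41.0 and 38.0 CPM in glands, low in the spindle cell tumour as Myc was. For Mycn they were Dclk2 (0.974), Gorasp1 (0.973), Aldh7a1 (0.964), Rttn (0.957) and Stard5 (0.957), with r of 0.718, 0.888, 0.579, 0.577 and 0.91 once the spindle cell tumour was left out. Dclk2, a doublecortin-like kinase of neurons, was at 62.6 CPM in the spindle cell tumour, 2.81 to 3.83 CPM in the other tumours and 2.18 to 3.25 CPM in glands. Rttn, a centriole protein, was at 150 CPM in the spindle cell tumour, 4.6 to 6.67 CPM in the other tumours and 1.77 to 6.08 CPM in glands. For Mycl they were Dyrk1b (0.935), Zfp672 (0.933), Krr1 (0.932), Tfcp2 (0.93) and Zfp952 (0.925), all high in gland 3 and the spindle cell tumour.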

How the data were processed

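Total RNA of 4 tumours and 3 glands was sequenced from TruSeq v2 libraries, per the labels' protocols; such libraries do not mark strand. Tools named in the submitters' processing notes are RSEM 1.3, STAR 2.5 and limma, with build GRCm38; their roles are not given. The authors deposited 1 table per library with a column headed TPM. Its sums, 5148438 to 35631279, differ between libraries, so the deposited values were taken to be expected counts (2.34% to 6.14% not whole) and rounded. Positions and exon lengths came from GENCODE M21, which held 50376 of 50600 identifiers.

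Tests were edgeR 4.0.16 quasi-likelihood F tests in R 4.3.3 with TMM scaling (factors 0.551 to 1.605) and filterByExpr (minimum count 10, minimum total 15), two-sided, with Benjamini-Hochberg adjusted p under 0.05 as passing: 14149 genes in 2 groups and 16866 in 4. SE is the log2 difference divided by the square root of F. The common biological coefficient of variation was 0.6 and 0.538. A prior count of 2 went into log2 CPM. Members and lists were chosen with earlier results of these data known. Named were all members, for each list the 2 smallest adjusted p in each direction among those that passed (otherwise the smallest p), 13 fixed genes, neighbours of Myc, and the 5 genes most like each family member; other names are marked in the text or are members of the lists and marker panels.

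Alternatives were DESeq2 1.42.0, limma-voom (limma 3.58.1), 2 other scalings, 2 other filters, each library left out and gland 2 as the only control. Mitochondrial genes were also left out, and the adenosquamous comparison was also fitted on its own 5 libraries. No library repeated another (chi-square per degree of freedom 85.0 to 374.9 within groups). The series' design text calls glands and tumours independent; the shared number of tumours 1a and 1b is not explained, and each counted as 1 replicate. Tested on simulated counts, the tumour comparison called 19 of 97 genes shifted by 2 and 93 of 96 shifted by 4 on the log2 scale, with 1 false call among 14510, on 14703 genes. The spindle cell comparison recovered 6 of 100 and 44 of 100, with 1 false call among 15582, on 15782 genes. The simulation gave every gene the common coefficient of variation and, apart from the shifts, the same proportions in every library. It shifted only genes above a minimum total count. Its rates may not hold for genes with few counts or a larger spread. Counting intervals cover counting error only.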

Additional observations from a re-analysis of the deposited data

Results flagged for a closer look

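Among the 4 tumours, Myc was set apart by 1 library: on the log2 scale the gap from the spindle cell tumour to the nearest other tumour was 0.887 of the whole range, above Dixon's 95% critical value for 4 samples. Chance flags about 1 in 20 groups of 4 drawn from 1 population. These 4 tumours are of different types, so that rate need not hold and the value is a description. Myc was also on opposite sides of the glands by type, with both adenosquamous tumours and the papillary tumour above all glands and the spindle cell tumour below them, a gap of 4.58 on the log2 scale between the sides. The difference itself did not pass in edgeR between spindle cell and adenosquamous tumours (log2 -4.79, adjusted p = 0.158) or between spindle cell and papillary tumours (log2 -5.31, adjusted p = 0.108), and passed in both without the low-count filter (adjusted p = 0.00761 and 0.00347).

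Mxd4 was above all glands in the spindle cell and papillary tumours and below them in both adenosquamous tumours, with a gap of 0.38 between the sides. Its test between spindle cell and adenosquamous tumours gave a log2 difference of 1.71 (adjusted p = 0.183), and that between papillary and adenosquamous tumours 0.68 (adjusted p = 0.378). Mga was above all glands in the papillary tumour, by less than rounding shows, and below them in the adenosquamous and spindle cell tumours, with a gap of 0.46. Its test between papillary and adenosquamous tumours gave 0.64 (adjusted p = 0.419) and between spindle cell and papillary tumours -0.63 (adjusted p = 0.794).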

How the results depend on the processing

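Each comparison was repeated under the alternatives and with each library left out. The count of genes called over all tumours, 1199, ran from 97 to 1351 when 1 library was left out, was 3403 in DESeq2 and 0 with gland 2 as the only control. Against glands, the adenosquamous count of 1212 ran from 0 to 1302 with 1 library left out and was 3552 in DESeq2 and 2499 without a filter. The spindle cell count of 245 ran from 0 to 380 and was 2302 in DESeq2, 376 in limma-voom and 1235 without a filter. The papillary count of 1140 ran from 0 to 1062 and was 3698, 2359 and 2408 under the same 3. Between types, DESeq2, limma-voom and no filter gave 2243, 210 and 1061 genes for papillary against adenosquamous tumours (59 as reported, 0 to 75 with 1 library left out), where median-ratio scaling gave 124, upper-quartile scaling 153, leaving out mitochondrial genes 114, and testing only the genes kept by the 2-group filter, a choice made after seeing the data, 147. For spindle cell against adenosquamous and against papillary tumours DESeq2 called 1087 and 893 genes and no filter 377 and 417, and with 1 library left out edgeR called 0 to 0.

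Directions that turned were those of small differences. With 1 library left out Mycl ran from -1.86 to 1.15 (without gland 3), Mxd4 from -0.24 (without the spindle cell tumour) to 0.50, Mycn in adenosquamous tumours from -0.35 (without tumour 1b) to 1.59, Mlx from -0.29 to 0.34, Mlxip from -0.002 to 0.74, Pvt1 from -0.93 to 0.63, Ncl from -0.15 to 0.67 and Sin3a from -0.11 to 0.20. With gland 2 as the only control Mycl was 0.48 and Sin3a -0.28, without a filter Mlx was 0.002, and in limma-voom Sin3a was -7e-05. The cause was not tested. No paired analysis was possible because the labels pair no gland with a tumour. With 5148438 to 7986916 counts in 4 libraries, genes below about 1 CPM, such as Mxd3, rest on few reads.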
